A study of Arabidopsis thaliana with 18 samples.

Results

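The miR170 and miR171 family was followed in small RNA libraries from *Arabidopsis thaliana* seedlings, over both strands of its hairpins. Its members are all entries of the deposited miRNA table named for miR170 or miR171. This gave 6 of the 161 entries, which cover 8 of the 203 miRNA names, because miR171a-5p and miR170-5p share an entry, as do miR171b-3p and miR171c-3p. Libraries were made from whole 4-d-old seedlings of 3 genotypes, with 3 libraries per genotype at 21 °C and 3 at 27 °C, which is 18 libraries in 6 groups. All seeds spent 5 days at 4 °C in darkness, all seedlings then grew at 21 °C under red light for 48 h, and they either stayed there or moved to 27 °C until collection at 96 h. Col-0 is the wild type. The mutant *hyl1-2* lacks normal HYL1, and *dcl1-24/hyl1-2* carries the same *hyl1-2* mutation together with *dcl1-24*, a dominant allele of *DCL1* found in a mutagenesis screen for suppressors of *hyl1-2* with a long hypocotyl in the warm. Each library came from 50 to 100 mg of pooled seedlings. The study names biological replicates, but no source used here says whether they were separate plantings, so the p-values measure the spread between these libraries.

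Plant miRNAs are cut from hairpin transcripts by the RNase III enzyme DCL1, and HYL1 is the double-stranded RNA-binding protein that helps DCL1 to cut efficiently and at the right place. Each cut releases a duplex, of which 1 strand is loaded into an ARGONAUTE protein as the guide and the other strand is usually degraded. In this family the 3p strands are the classical guides. They direct cleavage of the mRNAs of HAIRY MERISTEM genes (*HAM1*, *HAM2* and *HAM3*, also known as scarecrow-like genes or *LOM*), GRAS-domain transcription regulators that keep shoot meristems undifferentiated and act in branching and chlorophyll synthesis. The 5p strand shared by miR170 and miR171a has also been described as an ARGONAUTE1-loaded guide in *Arabidopsis*.

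The mature sequences are shown first because shared sequences decide which of the family members the table can tell apart. They were read from the RefSeq annotation of the TAIR10.1 assembly and run 5′ to 3′, with the seed (bases 2 to 8) in capitals. In the first pair of 5p strands below, the sequence is the same in both hairpins.
miR171a-5p and miR170-5p: uAUUGGCCugguucacucaga
miR171a-3p: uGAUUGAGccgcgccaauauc
miR170-3p: uGAUUGAGccgugucaauauc
miR171b-3p and miR171c-3p: uUGAGCCGugccaauaucacg
miR171b-5p: aGAUAUUAgugcgguucaauc
miR171c-5p: aGAUAUUGgugcgguucaauc
Counted from 1 at the 5′ end of the first-named miRNA, miR171a-3p and miR170-3p share a seed and differ by C12U and C14U. The strand shared by miR171b and miR171c begins 3 nt further along the same stretch. It therefore has another seed, although 17 of the 18 overlapping bases are the same as in miR171a-3p and the difference is C12U. The passenger strands miR171b-5p and miR171c-5p differ at a single seed base, A8G.

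The 4 hairpins are shown because the compared strands are cut from them. Capitals mark the 5p arm and then the 3p arm, each of 21 nt.
MIR171a: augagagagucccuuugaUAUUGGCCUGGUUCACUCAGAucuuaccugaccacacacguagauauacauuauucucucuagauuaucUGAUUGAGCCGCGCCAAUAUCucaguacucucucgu
MIR170: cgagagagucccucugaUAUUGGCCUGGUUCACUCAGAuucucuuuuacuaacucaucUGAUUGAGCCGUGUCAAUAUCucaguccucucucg
MIR171b: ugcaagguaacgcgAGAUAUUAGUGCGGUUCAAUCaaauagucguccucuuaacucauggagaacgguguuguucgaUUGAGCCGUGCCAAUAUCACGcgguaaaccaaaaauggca
MIR171c: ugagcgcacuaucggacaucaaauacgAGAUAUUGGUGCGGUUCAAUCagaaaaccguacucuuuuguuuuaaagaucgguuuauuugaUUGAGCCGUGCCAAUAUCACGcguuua
In TAIR10.1, MIR171a (AT3G51375) lies at chr3:19073434-19073556 on the plus strand. The other 3 genes lie on minus strands, MIR170 (AT5G66045) at chr5:26411580-26411672, MIR171b (AT1G11735) at chr1:3961348-3961464 and MIR171c (AT1G62035) at chr1:22930089-22930204. The stretch between the arms was 48 nt in MIR171a, 20 nt in MIR170, 42 nt in MIR171b and 41 nt in MIR171c.

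The target site is shown because it also bears on how reads of miR171a-3p can be placed. The same 21 nt occur in coding exons of *HAM1* (AT2G45160, chr2:18619128-18619148), *HAM2* (AT3G60630, chr3:22411544-22411564) and *HAM3* (AT4G00150, chr4:58411-58431), all on the minus strand. Capitals mark bases complementary to the miRNA named.
Site for miR171a-3p: GATATTGGCGCGGCTCAATCA
Site for miR170-3p: GATATTGgCgCGGCTCAATCA
Site for miR171b-3p, in HAM1 and HAM2: aGgGATATTGGCgCGGCTCAA
The site had 0 mismatches to miR171a-3p, 2 to miR170-3p and, in a window shifted by 3 nt, 3 to miR171b-3p. A G opposite a U was counted as a mismatch, as at the lower-case bases for miR170-3p and the last of those for miR171b-3p. Because its complement is exact, miR171a-3p matched the genome at 4 places, its own hairpin and the antisense strand of the 3 *HAM* genes. Of the 203 names in the table, 2 had an exact match antisense to a coding exon. The reads were aligned without mismatches and those with several places were distributed by the aligner, so the level of miR171a-3p may depend on that step. Of the 203 names, 83 had more than 1 exact match in the genome. The part of read placement in the results was not tested.

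Levels are given as RPMR, the reads of a miRNA divided by 45S rRNA reads and rescaled within each library, so a change in rRNA fragments also moves a level. From the steps between low values, 1 read was worth 0.24 to 0.896 RPMR. The implied miRNA reads per library ranged from 11040 to 77936 in *hyl1-2* and from 61810 to 173156 in the other 2 genotypes. The *dcl1-24/hyl1-2* library of replicate 3 at 21 °C had the lowest implied number of 45S rRNA reads (1115776) and the highest summed miRNA level (107318 RPMR) of the 18. The table holds miRNAs alone, so markers of the seedling's tissues were not measured. In whole seedlings, fewer cells that make a miRNA and less miRNA per cell cannot be told apart.

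Over the 18 libraries the family's entries lay between the ranks 21 and 146 of the table's 161 levels. The shared 5p strand of miR171a and miR170 had the highest mean, 103.7 RPMR. The guide miR171a-3p followed with 28.3 RPMR (rank 45) and the shared guide of miR171b and miR171c with 7.40 RPMR (rank 74). The remaining strands were rare, with means of 1.49 RPMR for miR171b-5p, 0.850 RPMR for miR170-3p and 0.838 RPMR for miR171c-5p, and each of these 3 was listed at 0 in 5 libraries. They rested on 64, 32 and 35 implied reads over all 18 libraries, against 4068 for the shared 5p strand. The family made up 0.217 to 0.665% of the summed miRNA level of a library, and the shared 5p strand made up 47.3 to 87.5% of the family. For fold changes, limma was fitted to log2(RPMR + 1) of the 139 entries whose mean reached 1 RPMR, which keeps 4 of the 6 family entries. An entry was called at an adjusted p under 0.05 (Benjamini-Hochberg over the 139 entries, two-sided), and each fold change below is on that scale.

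**Figure D1:**
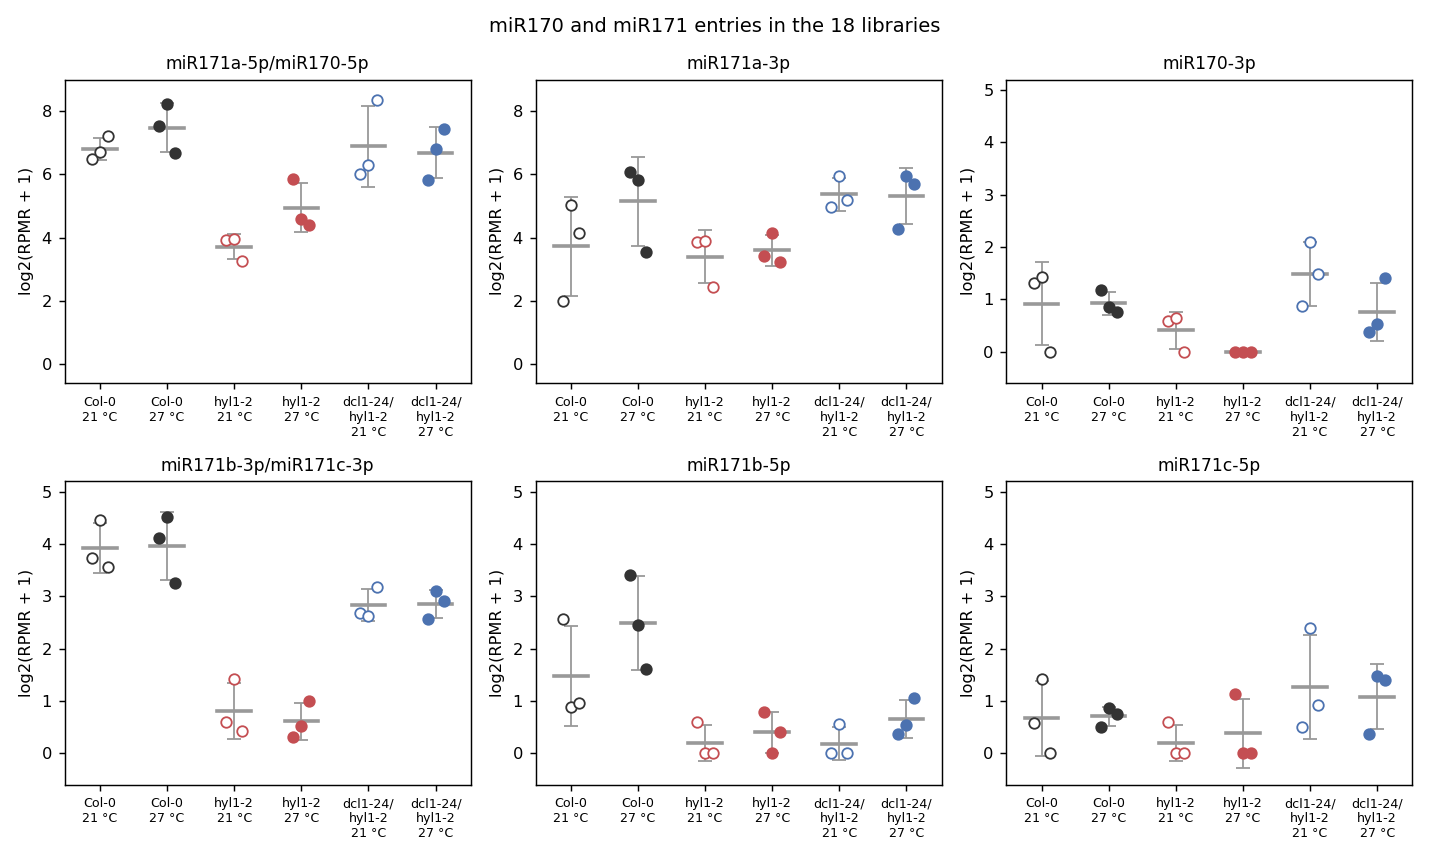
Level of each miR170 and miR171 entry as log2(RPMR + 1) in the 18 libraries, with open points at 21 °C and filled points at 27 °C, and with the mean and SD of the 3 libraries of each group in grey. The shared 5p strand and the guide of miR171b and miR171c sit lower in every *hyl1-2* library than in any Col-0 library, whereas miR171a-3p overlaps between these genotypes.

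The guide shared by miR171b and miR171c was low in *hyl1-2* and intermediate in *dcl1-24/hyl1-2*. In Col-0 its level was 12.4, 21.1 and 10.9 RPMR in the 3 libraries at 21 °C and 16.3, 22.0 and 8.53 RPMR at 27 °C. In *hyl1-2* it was 0.504, 1.67 and 0.340 RPMR at 21 °C and 0.240, 0.444 and 1.001 RPMR at 27 °C, or 1 to 3 implied reads per library. In *dcl1-24/hyl1-2* it was 5.43, 5.19 and 8.07 RPMR at 21 °C and 4.93, 7.57 and 6.55 RPMR at 27 °C. The 3 genotypes did not overlap at either temperature, in the order *hyl1-2*, *dcl1-24/hyl1-2*, Col-0. With the reads of a group pooled, 5 implied reads in *hyl1-2* stood against 98 in Col-0 at 21 °C, so Col-0 was 20.2-fold higher (95% interval 8.39 to 63.7), and 5 stood against 118 at 27 °C, 28.6-fold higher (11.9 to 89.6). These exact intervals cover counting error only. The fold change of *hyl1-2* against Col-0 was −3.12 ± 0.66 (SE, limma adjusted p = 3.7e-05) at 21 °C and −3.35 ± 0.66 (limma adjusted p = 1.9e-05) at 27 °C. That of *dcl1-24/hyl1-2* against *hyl1-2* was 2.02 ± 0.66 (limma adjusted p = 0.0048) at 21 °C and 2.25 ± 0.66 (limma adjusted p = 0.0046) at 27 °C. Between *dcl1-24/hyl1-2* and Col-0 the fold change was −1.09 (95% interval −2.41 to 0.22, limma adjusted p = 0.29) at 21 °C and −1.10 (−2.42 to 0.21, limma adjusted p = 0.24) at 27 °C, so that difference did not pass the test although the libraries did not overlap.

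The other abundant guide, miR171a-3p, was called in neither comparison of *hyl1-2* with Col-0. Its level in Col-0 was 2.97, 32.1 and 16.5 RPMR at 21 °C and 67.0, 56.3 and 10.6 RPMR at 27 °C. In *hyl1-2* it was 13.6, 13.9 and 4.42 RPMR at 21 °C and 9.62, 16.9 and 8.34 RPMR at 27 °C. At 21 °C the *hyl1-2* values lay within the wide Col-0 range. At 27 °C the values of 9.62 and 8.34 RPMR lay below every Col-0 value, and the groups overlapped at both temperatures. With the reads of a group pooled, Col-0 was 1.86-fold higher at 21 °C (95% interval 1.36 to 2.56, counting error only) and 3.87-fold higher at 27 °C (3.09 to 4.87). The fold change against Col-0 was −0.32 (95% interval −1.83 to 1.19, limma adjusted p = 0.75) at 21 °C and −1.56 (−3.07 to −0.05, limma adjusted p = 0.071) at 27 °C. At 21 °C it turned to 0.34 without Col-0 replicate 2, and at 27 °C it reached −2.37 (limma adjusted p = 0.0091) without Col-0 replicate 3.

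In *dcl1-24/hyl1-2*, miR171a-3p was at 30.1, 60.9 and 35.8 RPMR at 21 °C and at 18.6, 60.6 and 50.8 RPMR at 27 °C. Every one of these libraries was above every *hyl1-2* library of the same temperature. At 21 °C the fold change over *hyl1-2* was 1.97 ± 0.76 (SE, limma adjusted p = 0.016). The call was lost without *hyl1-2* replicate 3 (1.49, limma adjusted p = 0.11) or without *dcl1-24/hyl1-2* replicate 2 (1.68, limma adjusted p = 0.063). At 27 °C the fold change of 1.71 ± 0.76 had a limma adjusted p of 0.0502. It was 0.047 with the replicate number as a block and 0.021 without *dcl1-24/hyl1-2* replicate 1 (2.22). Against Col-0, *dcl1-24/hyl1-2* differed by 1.65 (95% interval 0.14 to 3.16, limma adjusted p = 0.11) at 21 °C, which became 2.31 (limma adjusted p = 0.039) without Col-0 replicate 2, and by 0.16 (−1.35 to 1.66, limma adjusted p = 0.90) at 27 °C.

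The third guide, miR170-3p, has the same seed as miR171a-3p but a level near that of a few reads. It was at 1.49, 1.69 and 0 RPMR in Col-0 at 21 °C and at 1.26, 0.816 and 0.683 RPMR at 27 °C. In *hyl1-2* it was at 0.504, 0.556 and 0 RPMR at 21 °C and was listed at 0 in all 3 libraries at 27 °C, where 3 reads over the group would be 0.319 RPMR. In *dcl1-24/hyl1-2* the levels were 0.835, 3.30 and 1.79 RPMR at 21 °C and 0.290, 0.445 and 1.64 RPMR at 27 °C. At 27 °C all Col-0 and *dcl1-24/hyl1-2* libraries were above 0 and no *hyl1-2* library was. Pooled over the group, Col-0 held 7 implied reads (0.901 RPMR) at 27 °C, and no fold is given on so few reads.

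The 5p strand shared by miR171a and miR170 was the most abundant product of the family and was lower in *hyl1-2* in every library. In Col-0 it was at 89.6, 104 and 146 RPMR at 21 °C and at 184, 297 and 101 RPMR at 27 °C. In *hyl1-2* it was at 14.1, 14.5 and 8.51 RPMR at 21 °C and at 56.5, 23.1 and 20.4 RPMR at 27 °C. The fold change against Col-0 was −3.10 ± 0.74 (SE, limma adjusted p = 0.00020) at 21 °C and −2.53 ± 0.74 (limma adjusted p = 0.0030) at 27 °C, and the libraries did not overlap. With the reads of a group pooled, Col-0 was 9.65-fold higher at 21 °C (95% interval 7.64 to 12.3, counting error only) and 5.10-fold higher at 27 °C (4.53 to 5.75).

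In *dcl1-24/hyl1-2* this strand was at 63.5, 77.9 and 326 RPMR at 21 °C and at 56.2, 110.0 and 172 RPMR at 27 °C. The highest of these is the library of replicate 3 at 21 °C with the fewest implied 45S rRNA reads. At 21 °C the fold change over *hyl1-2* was 3.18 ± 0.74 (SE, limma adjusted p = 0.00017), and it was 2.45 (limma adjusted p = 0.0078) without that library. At 27 °C it was 1.74 ± 0.74 (limma adjusted p = 0.042) with overlapping libraries, since *hyl1-2* replicate 1 at 56.5 RPMR stood above the lowest *dcl1-24/hyl1-2* library. This call was lost without replicate 2 or 3 of either genotype, where the fold change ranged from 1.37 to 1.69 and the limma adjusted p from 0.10 to 0.20. Against Col-0 the fold change was 0.08 (95% interval −1.39 to 1.55, limma adjusted p = 0.97) at 21 °C, or −0.65 without *dcl1-24/hyl1-2* replicate 3, and −0.79 (−2.26 to 0.69, limma adjusted p = 0.48) at 27 °C. The libraries of Col-0 and *dcl1-24/hyl1-2* overlapped at both temperatures.

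The passenger strand miR171b-5p had its highest levels in Col-0. It was at 4.95, 0.845 and 0.945 RPMR in Col-0 at 21 °C and at 9.63, 4.49 and 2.05 RPMR at 27 °C, or 2 to 23 implied reads per library. In *hyl1-2* the levels were 0.504, 0 and 0 RPMR at 21 °C and 0.721, 0 and 0.334 RPMR at 27 °C, or at most 3 reads. In *dcl1-24/hyl1-2* they were 0, 0.472 and 0 RPMR at 21 °C and 0.290, 0.445 and 1.09 RPMR at 27 °C, or at most 2 reads. Every Col-0 library was above every library of both mutants at the same temperature, while the 2 mutants overlapped. The entry passed the minimum mean only through its Col-0 levels, so this order and the pooled ratios to Col-0 are a description. Pooled reads gave a level in Col-0 that was 14.5-fold that in *hyl1-2* at 21 °C (95% interval 2.20 to 612, from 14 and 1 reads) and 12.1-fold at 27 °C (4.38 to 46.6, from 40 and 4 reads).

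The entry miR171b-5p reached the minimum mean of 1 RPMR only through Col-0, with group means of 2.25 RPMR at 21 °C and 5.39 RPMR at 27 °C. Mutant group means were 0.157 to 0.609 RPMR, so its calls below Col-0 draw on the group that admitted it. For miR171b-5p, *hyl1-2* differed from Col-0 by −1.28 ± 0.51 (SE, limma adjusted p = 0.025) at 21 °C and −2.09 ± 0.51 (limma adjusted p = 0.00038) at 27 °C. At 21 °C the call was lost without Col-0 replicate 1 (−0.73, limma adjusted p = 0.28), without *hyl1-2* replicate 2 or 3 (−1.18 in both, limma adjusted p = 0.083 and 0.093), or with a pseudocount of 5 RPMR (−0.44, limma adjusted p = 0.089). Under the 3 other scalings described further on, the value at 21 °C was −0.59 to −0.31 without a call (limma adjusted p = 0.27 to 0.60). At 27 °C the call was lost under 2 of them, the sum without miR5026 (−0.77, limma adjusted p = 0.22) and median-of-ratios factors (−1.04, limma adjusted p = 0.063). Between *dcl1-24/hyl1-2* and *hyl1-2* it was −0.01 (95% interval −1.03 to 1.01, limma adjusted p = 0.98) at 21 °C and 0.25 (−0.76 to 1.27, limma adjusted p = 0.68) at 27 °C. Pooled reads gave a ratio of *dcl1-24/hyl1-2* over *hyl1-2* of 1.19 at 21 °C (95% interval 0.0152 to 93.7, from 1 read in each) and 1.25 at 27 °C (0.233 to 6.71, from 4 in each). At this depth a difference within these intervals could not be told from none. Against Col-0, miR171b-5p was called lower at 27 °C in the suppressor line *dcl1-24/hyl1-2*, with −1.84 ± 0.51 (limma adjusted p = 0.0036), a call lost without Col-0 replicate 1 (−1.38, limma adjusted p = 0.068) or with the sum without miR5026 (−1.04, limma adjusted p = 0.091). At 21 °C the value of −1.29 ± 0.51 had a limma adjusted p of 0.057, which ranged over the alternatives from 0.038 with a pseudocount of 0.5 RPMR to 0.47 without Col-0 replicate 1 (−0.74). It was under 0.05 in 4 of them, the others being those without Col-0 replicate 2 or 3 or without *dcl1-24/hyl1-2* replicate 2, and it was 0.15 to 0.33 under the 3 other scalings.

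The passenger strand miR171c-5p, cut from the other hairpin with the same guide, stayed near the level of a few reads in all groups. It was at 0.495, 1.69 and 0 RPMR in Col-0 at 21 °C and at 0.419, 0.816 and 0.683 RPMR at 27 °C. In *hyl1-2* it was at 0.504, 0 and 0 RPMR at 21 °C and at 1.20, 0 and 0 RPMR at 27 °C. Its levels in *dcl1-24/hyl1-2* were 0.418, 4.25 and 0.896 RPMR at 21 °C and 0.290, 1.78 and 1.64 RPMR at 27 °C. Its genotypes overlapped at both temperatures, and the highest level, 9 implied reads, was in a *dcl1-24/hyl1-2* library. It differs by 1 base from miR171b-5p, whose highest levels were in Col-0.

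The counts of called family entries are read against the whole table, since many miRNAs moved with the same genotypes. In *hyl1-2* against Col-0, 3 of the 4 tested entries fell at 21 °C, where 59.7% of the 139 entries fell, and 3 of 4 at 27 °C, where 54% fell. In *dcl1-24/hyl1-2* against *hyl1-2*, 3 of 4 rose at 21 °C, where 79.9% of all entries rose, and 2 of 4 at 27 °C, where 47.5% rose. Against Col-0, *dcl1-24/hyl1-2* differed in 0 of 4 entries at 21 °C by limma (2 at an unadjusted p under 0.05), where 21.6% of all entries were called in either direction, and it was lower in 1 of 4 at 27 °C, where 10.1% were lower. In both mutants the entries called lower than Col-0 include miR171b-5p, which reached the minimum mean only through Col-0. The comparisons share their libraries: each genotype is used in 2 of these at each temperature. For *hyl1-2* against Col-0 the family's median fold change was −2.19 beside −1.95 over all entries at 21 °C and −2.31 beside −1.62 at 27 °C. For *dcl1-24/hyl1-2* against *hyl1-2* the medians were 2.00 beside 2.09 at 21 °C and 1.73 beside 1.46 at 27 °C. The family medians also include miR171b-5p.

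**Figure D2:**
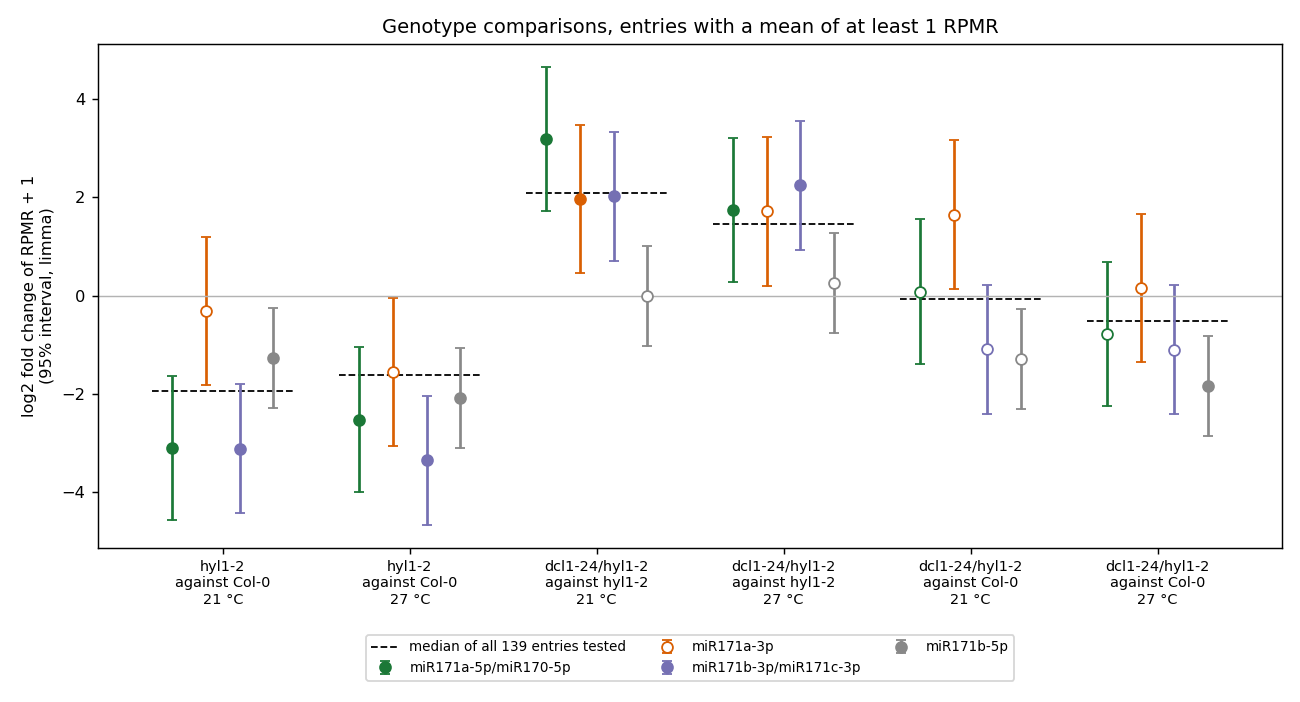
Fold change of the 4 tested entries in the 6 genotype comparisons, as log2 of (RPMR + 1) with 95% intervals from limma, filled where called, with the median of all 139 entries as a dashed line. The guide of miR171b and miR171c lies at −3.12 and −3.35 in *hyl1-2* against Col-0, while miR171a-3p lies at −0.32 and −1.56.

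Most of the shift between genotypes was common to the table, so the signs and calls of the family's entries depended on the scaling. With libraries scaled to their summed miRNA level, with or without miR5026, or by median-of-ratios factors, the median of all entries in *hyl1-2* against Col-0 moved to between −0.38 and 0.26. Of all entries called in that comparison at 21 °C, 83 were lower and 1 higher as deposited, against 28 and 25 with the summed level, 23 and 33 without miR5026, and 35 and 21 with median-of-ratios factors. Between the mutants at 21 °C, 111 were higher in the double mutant and 3 lower as deposited, against 21 and 23, 23 and 13, and 40 and 10 under the same scalings in this order. As deposited, the summed miRNA level at 21 °C was 3757 to 7657 RPMR in *hyl1-2* and 31638 to 51557 RPMR in Col-0. The 3 scalings level such differences, so a value above 0 under them is relative to the other miRNAs. Under these 3 scalings miR171a-3p turned from lower to higher in *hyl1-2* at 21 °C, by 2.07 to 2.74 (limma adjusted p = 0.0036 to 0.025), and its value at 27 °C turned to 0.20 to 0.98 without a call. The guide of miR171b and miR171c stayed lower in *hyl1-2* under all 3. At 27 °C it kept its call in each (−2.13 to −1.47, limma adjusted p = 0.0035 to 0.039), and at 21 °C it lost it under both sum scalings (−1.29 and −0.78, limma adjusted p = 0.051 and 0.26). The shared 5p strand lost its call in *hyl1-2* against Col-0 at both temperatures under all 3, with values from −0.72 to 0.22. No family entry kept its call in *dcl1-24/hyl1-2* against *hyl1-2* under any of them.

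Ratios between entries of the same library do not depend on the scaling, apart from the added pseudocount. The ratio of the 2 abundant guides, miR171a-3p over miR171b-3p/miR171c-3p, was 0.24, 1.52 and 1.52 in Col-0 at 21 °C and 4.10, 2.56 and 1.24 at 27 °C. In *hyl1-2* it was 27, 8.33 and 13 at 21 °C and 40, 38 and 8.33 at 27 °C, each over 1 to 3 implied reads of the denominator. In *dcl1-24/hyl1-2* it was 5.54, 11.7 and 4.44 at 21 °C and 3.76, 8 and 7.75 at 27 °C. Every *hyl1-2* library was above every Col-0 library of its temperature. On the scale of log2((RPMR + 1)/(RPMR + 1)), *hyl1-2* was higher than Col-0 by 2.29 in an exact permutation test of the genotype labels within temperature (two-sided p = 0.005, the smallest the 400 arrangements can give, adjusted p = 0.04 over 8 ratio tests). The difference was 2.80 at 21 °C and 1.79 at 27 °C. With a pseudocount of 5 RPMR, which is above every *hyl1-2* level of the denominator, it was 0.96 (exact permutation adjusted p = 0.093). Without Col-0 replicate 2 or 3 at 27 °C the exact permutation adjusted p was 0.06. With the replicate number as a block the difference was the same and the exact permutation adjusted p was 0.17.

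The same ratio was higher in *dcl1-24/hyl1-2* than in Col-0 by 2.00 (exact permutation p = 0.01, adjusted p = 0.04), by 2.74 at 21 °C without overlap and by 1.26 at 27 °C with overlap. The exact permutation adjusted p rose to between 0.053 and 0.06 when any of 5 libraries was left out: Col-0 replicate 2 or 3 at 27 °C, *dcl1-24/hyl1-2* replicate 2 at 21 °C, and *dcl1-24/hyl1-2* replicate 2 or 3 at 27 °C. Between the 2 mutants the difference was −0.29 (exact permutation p = 0.46, adjusted p = 0.53). As a share of all 3p-strand RPMR of the family, miR171a-3p made up 17.6 to 60.3% in Col-0 at 21 °C and 53.4 to 79.2% at 27 °C, against 86.2 to 97.6% in *hyl1-2* and 78.0 to 88.3% in *dcl1-24/hyl1-2* over both temperatures.

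The strand ratio of the shared 5p strand over miR171a-3p compares both arms of the MIR171a hairpin, with MIR170 adding to the first. It was 30.2, 3.25 and 8.86 in Col-0 at 21 °C and 2.75, 5.28 and 9.58 at 27 °C. In *hyl1-2* it was 1.04, 1.04 and 1.92 at 21 °C and 5.88, 1.37 and 2.44 at 27 °C. The *dcl1-24/hyl1-2* libraries had ratios of 2.11, 1.28 and 9.10 at 21 °C and 3.03, 1.82 and 3.40 at 27 °C. All *hyl1-2* libraries at 21 °C were below all Col-0 libraries, and at 27 °C the genotypes overlapped. The log2 difference of *hyl1-2* from Col-0 was −1.88 (exact permutation p = 0.02, adjusted p = 0.053), with −2.78 at 21 °C and −0.97 at 27 °C. It passed the threshold with a pseudocount of 5 RPMR (−1.74, exact permutation adjusted p = 0.04) and without Col-0 replicate 2 at 21 °C, Col-0 replicate 1 at 27 °C or *hyl1-2* replicate 1 at 27 °C (−2.23 to −2.09, exact permutation adjusted p = 0.027 to 0.04). For *dcl1-24/hyl1-2* the difference was 0.62 from *hyl1-2* (exact permutation adjusted p = 0.44) and −1.25 from Col-0 (exact permutation adjusted p = 0.17).

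**Figure D3:**
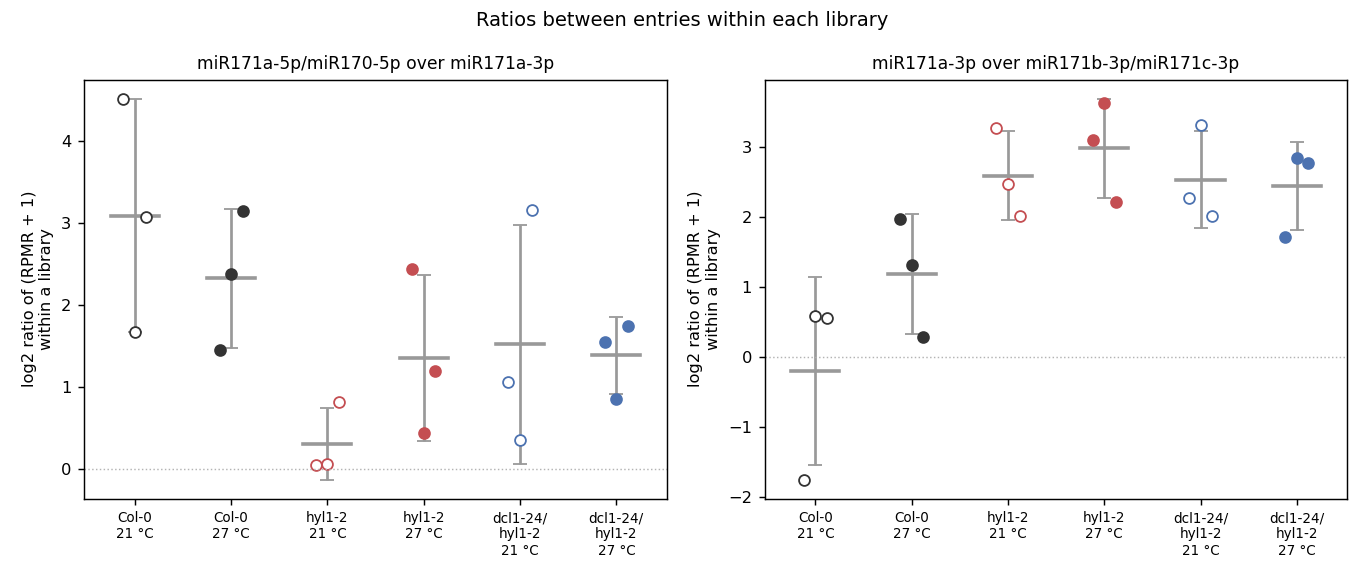
Log2 ratios of (RPMR + 1) within each library, with open points at 21 °C and filled points at 27 °C and the mean and SD of each group in grey. In the right panel all 12 mutant libraries have a positive log2 ratio of miR171a-3p over the guide of miR171b and miR171c, between 1.72 and 3.63, while the Col-0 libraries lie at −1.75 and, for the other 5, between 0.28 and 1.97, so that the highest of them is above the lowest *dcl1-24/hyl1-2* library.

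The warm response, 27 against 21 °C within a genotype, did not pass the test for any of the 4 entries. In Col-0, miR171a-3p was 1.43 higher at 27 °C (95% interval −0.08 to 2.94, limma adjusted p = 0.49), or 0.56 without Col-0 replicate 1 at 21 °C and 2.24 without Col-0 replicate 3 at 27 °C, and miR171b-5p was 1.02 higher (0.00 to 2.04, limma adjusted p = 0.46), the latter at an unadjusted p of 0.049. The shared 5p strand differed by 0.67 (−0.80 to 2.14, limma adjusted p = 0.80). The libraries overlapped between temperatures for each of these, although 2 of the 3 Col-0 libraries at 27 °C held more miR171a-3p than any at 21 °C. In *hyl1-2* the shared 5p strand was higher in all 3 libraries at 27 °C than in any at 21 °C, by 1.24 (−0.23 to 2.72, limma adjusted p = 0.43). The implied miRNA reads also differed there, 11040 to 13765 per *hyl1-2* library at 21 °C and 23319 to 77936 at 27 °C, and their part in this value was not tested. The other 8 values, with the guide of miR171b and miR171c in all genotypes among them, lay between −0.20 and 0.47.

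Few miRNAs of the table passed this test either. By limma, the share of the 139 entries called was 0.719% for Col-0, 0% for *hyl1-2* and 1.44% for *dcl1-24/hyl1-2*, with 14, 16 and 12 entries at an unadjusted p under 0.05. Of the family's 4 entries, 1 in Col-0 and 0 in the mutants were at an unadjusted p under 0.05. The difference of the warm response from that of Col-0 was called in 0 of 4 family entries and in 0% of all entries for both *hyl1-2* and *dcl1-24/hyl1-2* (4 and 1 entries at an unadjusted p under 0.05, limma). The widest of these differences was that of miR171a-3p, −1.24 (95% interval −3.37 to 0.90) for *hyl1-2* and −1.49 (−3.63 to 0.64) for *dcl1-24/hyl1-2*. The ratio tests gave 0.56 for the guide ratio (exact permutation adjusted p = 0.30) and 0.05 for the strand ratio (exact permutation adjusted p = 0.92) at 27 against 21 °C.

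**Figure D4:**
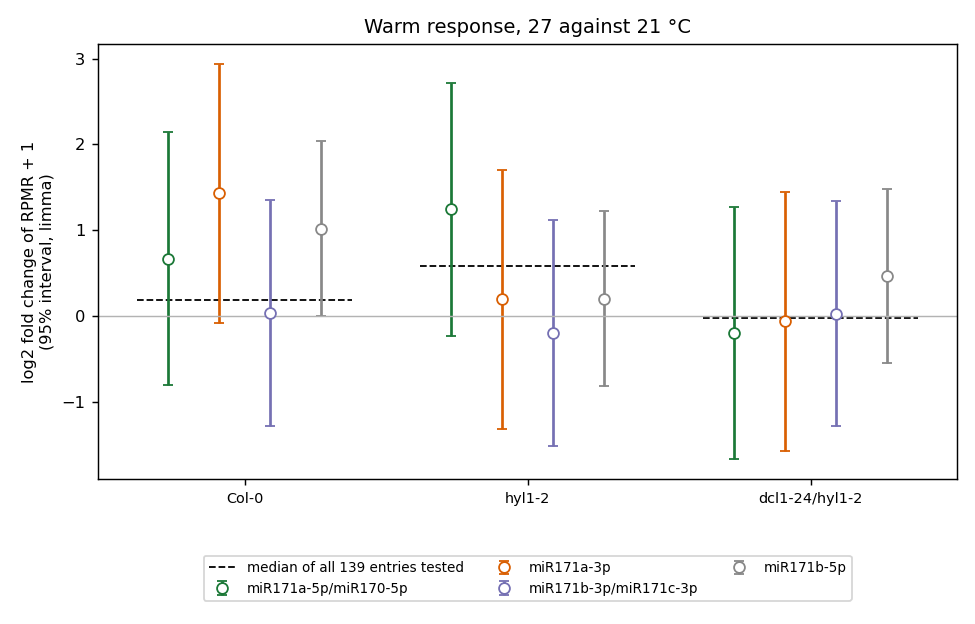
Fold change at 27 against 21 °C of the 4 tested entries within each genotype, as log2 of (RPMR + 1) with 95% intervals from limma, and the median of all 139 entries as a dashed line. All points are open because none was called, and miR171a-3p in Col-0 lies at 1.43, a value that leaving out 1 library moves to between 0.56 and 2.24.

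Other miRNAs with roles close to those of the family moved in the same genotype comparisons. Both lists below count guide and passenger strands of the families named, so an entry need not be the strand that acts on a target. Of 10 entries of shoot meristem miRNAs (miR164, miR165 and miR166, which act on boundary and leaf-polarity genes, and miR394, a mobile signal of the shoot apex), 10 fell in *hyl1-2* against Col-0 at 21 °C and 7 at 27 °C, beside 59.7% and 54% of all entries. Of the same 10 in *dcl1-24/hyl1-2* against *hyl1-2*, 10 rose at 21 °C and 2 at 27 °C, beside 79.9% and 47.5% of all entries. Of 9 entries of miR156 and miR157, whose SPL targets interact with the HAM proteins in *Arabidopsis*, 6 fell in *hyl1-2* at each temperature, and of these 9 in *dcl1-24/hyl1-2* against *hyl1-2*, 8 rose at 21 °C and 3 at 27 °C, to be read against the same shares. Against Col-0, *dcl1-24/hyl1-2* had 0 calls in either list at 21 °C by limma (2 in the meristem list and 0 in the other at an unadjusted p under 0.05) and 1, lower and in the meristem list, at 27 °C. The warm response was called by limma in 0 entries of either list in any genotype, beside 0 to 1.44% of all entries. At an unadjusted p under 0.05 were 0 to 3 entries of a list. In *hyl1-2* against Col-0 the median fold change of the meristem list was −2.73 at 21 °C and −1.80 at 27 °C, and that of the miR156 and miR157 list −1.87 and −2.29, beside −1.95 and −1.62 over all entries. As for the family, these directions depended on the scaling. Under the 3 others, over both temperatures, *hyl1-2* had 2 or 3 meristem entries below Col-0 and 0 to 2 above it, with 0 to 2 entries of miR156 and miR157 below and 1 to 4 above. Of all 139 entries, 15 to 35 were then called below Col-0 and 16 to 33 above it. Between the mutants, 0 to 4 meristem entries were then higher in the double mutant and 0 or 1 lower, and 0 or 1 of miR156 and miR157 were higher and 0 to 3 lower. Of all entries, 4 to 40 were called higher and 5 to 23 lower in that comparison. The warm response was then called in 0 to 2 entries of a list per genotype, beside 1 to 4 of all entries lower and 2 to 8 higher.

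Entries with the most similar profile over the 18 libraries were sought after scaling by median-of-ratios factors, as a description in which all points share libraries. For the guide of miR171b and miR171c these were miR173-5p (Pearson r = 0.80), miR1886.2 (r = 0.80) and miR159a (r = 0.73). For the shared 5p strand they were miR824-3p (r = 0.79), miR5651 (r = 0.65) and miR5663-5p (r = 0.57). For miR171a-3p they were miR394a/miR394b-5p (r = 0.70), miR167c-5p (r = 0.64) and the miR160 guide (r = 0.59), and for miR171b-5p they were miR775 (r = 0.67), miR165a-3p/miR165b (r = 0.63) and miR399b/miR399c-3p (r = 0.55). No family entry was among the 3 closest of another, and r between family entries lay between −0.40 and 0.32. The guide of miR171b and miR171c rested on 1 to 3 implied reads in each *hyl1-2* library. For miR171b-5p it was at most 3 in each library of both mutants. The part of counting error in these r was not tested.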

How the data were processed

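Small RNA of 15 to 40 nt was gel-purified from total RNA and sequenced. Per the authors' methods, adapters were removed with cutadapt 3.0, and reads were aligned without mismatches to the Araport11 genome with ShortStack, which distributes reads with several places. The deposited unit is RPMR, an RPM for which the authors used a library's 45S rRNA reads as the total. The authors' DESeq2 1.35.0 results were not used. Red light is given as 50 μmol m−2 s−1 by the paper and as mmol by the labels.

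Values are whole multiples of the smallest in each library (largest distance 1.1e-10), but too few are low to treat them as recovered counts. Implied reads, with the smallest value taken as 1 read, give depth and the counting intervals of pooled ratios, and no count test was run on them. The smallest value was 0.24 to 0.896 RPMR, which sets the precision of rare strands. Groups follow the labels, and all 18 columns were used. limma 3.58.1 (R 4.3.3) was fitted with a variance trend and 6 group means. Ratio tests permuted labels exactly in Python, and the exact counting intervals were computed with scipy 1.17.1. The limma fit and the ratio tests were tested on simulated data. Python 3.11.15, numpy 2.4.6, pandas 2.3.3 and matplotlib 3.10.9 were used.

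Members, lists, tests and alternatives (pseudocounts, minimum means, scalings, replicate block, groups compared only, each library left out) were chosen with earlier results of these data known. The text names all family entries and, for each tested one, the 3 most correlated entries. Same-numbered libraries deviated together (r over 0.1 for all 3 numbers) between *hyl1-2* and Col-0 at 27 °C (0.16 to 0.48) and between temperatures in *dcl1-24/hyl1-2* (0.14 to 0.27), as judged from the values alone. Sequences were read from TAIR10.1 by annotated position, and all 203 names matched. Sequencing of mRNA was not analysed here.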

Additional observations from a re-analysis of the deposited data

How the results depend on the processing

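Changes in the counts of calls and in direction are given here, with limma values on the log2(RPMR + 1) scale. In *hyl1-2* against Col-0, the family entries called at 21 and 27 °C numbered 1 and 2 of 4 when libraries were scaled to summed miRNA level, 1 and 1 without miR5026 in the sum, and 2 and 1 with median-of-ratios factors, and at 21 °C miR171a-3p, higher in *hyl1-2* relative to the other miRNAs, was among those called under each. In *dcl1-24/hyl1-2* against *hyl1-2* they numbered 0 at both temperatures under each of the 3 scalings. The counts over all entries at 21 °C are given above. At 27 °C in *hyl1-2* against Col-0, 30 of all 139 entries were called lower and 16 higher with the summed level. These were 15 and 29 without miR5026, and 23 and 19 with median-of-ratios factors. Between the mutants at 27 °C they were 8 and 4, 7 and 18, and 5 and 18 in the same order. With no minimum mean, which adds both rare entries to the test, 5 of 6 family entries were called between the mutants at 21 °C. In *dcl1-24/hyl1-2* against Col-0 at 21 °C, 1 entry was called in each of 2 settings, not the same one. With a pseudocount of 0.5 RPMR it was miR171b-5p, lower (−1.82, limma adjusted p = 0.038). With the sum without miR5026 it was miR171a-3p, higher (2.05, limma adjusted p = 0.037), where 7 of all entries were lower and 27 higher. At 27 °C 2 family entries were called with the summed level, 0 with the sum without miR5026 and 0 with a minimum mean of 5 RPMR, which removes miR171b-5p from the test. There the summed level called 31 of all entries lower and 17 higher, and the sum without miR5026 called 7 lower and 33 higher. Shares over all entries are not given for the pseudocounts, the minimum means or the fits with a library left out.

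In the genotype comparisons and the differences of the warm response, signs that turned under the summed level, the sum without miR5026 and median-of-ratios factors, in this order, were those of miR171a-3p in *hyl1-2* against Col-0 at 21 °C (2.28, 2.74 and 2.07) and at 27 °C (0.20, 0.98 and 0.41) and in *dcl1-24/hyl1-2* against *hyl1-2* at 21 °C (−1.01, −0.69 and −0.37), of miR171b-5p in the latter at 27 °C (−0.34, −0.27 and −0.20) and of the difference of the warm response of miR171b-3p/miR171c-3p in *dcl1-24/hyl1-2* (0.021, 0.30 and 0.29). Under the summed level alone, the shared 5p strand turned to −0.33 and miR171a-3p to −0.30 in *dcl1-24/hyl1-2* against *hyl1-2* at 27 °C, and in *dcl1-24/hyl1-2* against Col-0 the former turned to −0.21 at 21 °C and the latter to −0.10 at 27 °C. Under the sum without miR5026 alone, the shared 5p strand turned to 0.22 and 0.10 in *hyl1-2* against Col-0 at 21 and 27 °C and to 0.16 in *dcl1-24/hyl1-2* against Col-0 at 27 °C. The difference of its warm response in *hyl1-2* turned to −0.39 with the summed level and −0.13 without miR5026. Of the warm responses, none of which was called, that of miR171a-3p in *hyl1-2* turned under all 3 (−0.78, −0.53 and −0.72), that of miR171b-3p/miR171c-3p under median-of-ratios factors in Col-0 (−0.31) and *dcl1-24/hyl1-2* (−0.02), and in *dcl1-24/hyl1-2* without miR5026 those of the shared 5p strand (0.12) and miR171a-3p (0.24). With each library left out included, warm responses turned sign in 21 of their alternative values. A scaling divides every entry of a library by 1 factor, and the cause of other changes was not tested.

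With a pseudocount of 5 RPMR the strand ratio of *hyl1-2* against Col-0 was −1.74 and passed the threshold, the guide ratio was 0.96 and did not, and the guide ratio of *dcl1-24/hyl1-2* against *hyl1-2* turned to 0.54. With a replicate block the guide ratios against Col-0 were the same in size, 2.29 for *hyl1-2* and 2.00 for *dcl1-24/hyl1-2*, but the exact permutation adjusted p was 0.17, since the signs of 6 pairs allow few arrangements. In the limma fits the replicate block changed 1 call, that of miR171a-3p in *dcl1-24/hyl1-2* against *hyl1-2* at 27 °C.

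Leaving out each library in turn, the called entries ranged from 0 to 2 in *dcl1-24/hyl1-2* against Col-0 at 21 °C, from 0 to 1 at 27 °C, and from 1 to 3 in *dcl1-24/hyl1-2* against *hyl1-2* at 27 °C. Fold changes that turned sign ranged for miR171a-3p from −1.19 to 0.34 (*hyl1-2* against Col-0, 21 °C) and from −0.65 to 0.67 (*dcl1-24/hyl1-2* against Col-0, 27 °C), for the shared 5p strand from −0.65 to 0.52 (*dcl1-24/hyl1-2* against Col-0, 21 °C), for miR171b-5p from −0.20 to 0.19 (*dcl1-24/hyl1-2* against *hyl1-2*, 21 °C), and for the difference of the warm response of miR171b-3p/miR171c-3p from −0.59 to 0.069 (*hyl1-2*) and from −0.36 to 0.27 (*dcl1-24/hyl1-2*). The strand ratio ranged from −2.23 to −1.52 for *hyl1-2* against Col-0 and from −0.19 to 0.32 for 27 against 21 °C, and the guide ratio from 1.91 to 2.49 for *hyl1-2* and from 1.61 to 2.20 for *dcl1-24/hyl1-2*, both against Col-0. Depth limits miR170-3p, miR171c-5p and, in both mutants, miR171b-5p, where 1 read moves a value.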
